A study of Macaca fascicularis with 16 samples.

Results

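Forkhead genes encode transcription factors that share the winged-helix DNA-binding domain and are named FOX with a letter for the subfamily and a number. Every row of the count table whose gene identifier carries a cynomolgus monkey symbol of the form FOX, a letter from A to S and a number was taken, whatever its counts. This gave 42 genes of 32846 rows. RNA was sequenced in bulk from the aorta of normal young cynomolgus monkeys (Macaca fascicularis), with 4 libraries from each of 4 regions: the ascending and descending thoracic aorta and the abdominal aorta above (suprarenal) and below (infrarenal) the kidneys. All 16 are labelled as baseline tissue of normal animals, and the labels give no genotype, age in years or animal identity. The replicate number, 1 to 4, is the only name each library has within its region. Nothing says that the libraries are separate animals, so a p-value here is set against the spread of these libraries, which may in part be technical.

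Forkhead factors read position and growth signals in the vessel wall. The C subfamily acts in mesoderm and neural crest that build the heart outflow tract and the aortic arches, the F subfamily and FOXL1 lie downstream of hedgehog ligands in mesenchyme, and the O subfamily is held out of the nucleus by insulin and PI3K-AKT signalling. The P subfamily acts mainly as repressors that pair with each other through a leucine zipper. The ascending aorta draws smooth muscle from neural crest and the second heart field, and the aorta further down draws it from mesoderm beside the somites and the gut.

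Library totals ran from about 14402800 to 21407500 counts, of which 99.9% fell in the 15926 genes that passed the filter on low counts. Levels are given as CPM, a gene's share of the library's counts after TMM scaling. They are not divided by transcript length, and so are compared between libraries and not between genes. Smooth muscle genes were abundant in every library, with 14061 to 57874 CPM summed over 10 markers and none at 0. Infrarenal replicate 1 stood apart, with a TMM factor of 0.736 against 0.977 or more in the rest. Ascending replicate 4 and suprarenal replicate 3 had the lowest scores of the smooth muscle markers, -0.74 and -1.01 against -0.18 to 0.45 in the other 14 (the average over markers of log2 CPM minus that marker's 16-library mean). Their endothelial scores were 1.24 and 2.05 against -1.28 to 1.46 elsewhere. Several results that rest on these 3 libraries are given below with and without them. In bulk tissue, fewer cells of a type and less RNA per cell cannot be told apart.

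Of the forkhead genes with enough RNA to test, 1 passed a test between regions of the aorta. Of the 42 genes, 24 passed the filter and 18 did not. FOXP4 fell from the ascending to the infrarenal aorta, which is 1 of 24 tested members against 3.49% of all tested genes in that comparison, a share near the background. In edgeR's quasi-likelihood test of any difference among the 4 regions, 0 of 24 members passed at an adjusted p under 0.05, where 2.02% of all tested genes did. An unadjusted p under 0.05 was found for 5 members there, beside 9.61% of all tested genes. DESeq2 called 1 and limma voom called 0, in fits that called 5.18% and 1.64% of all tested genes.

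**Figure D1:**
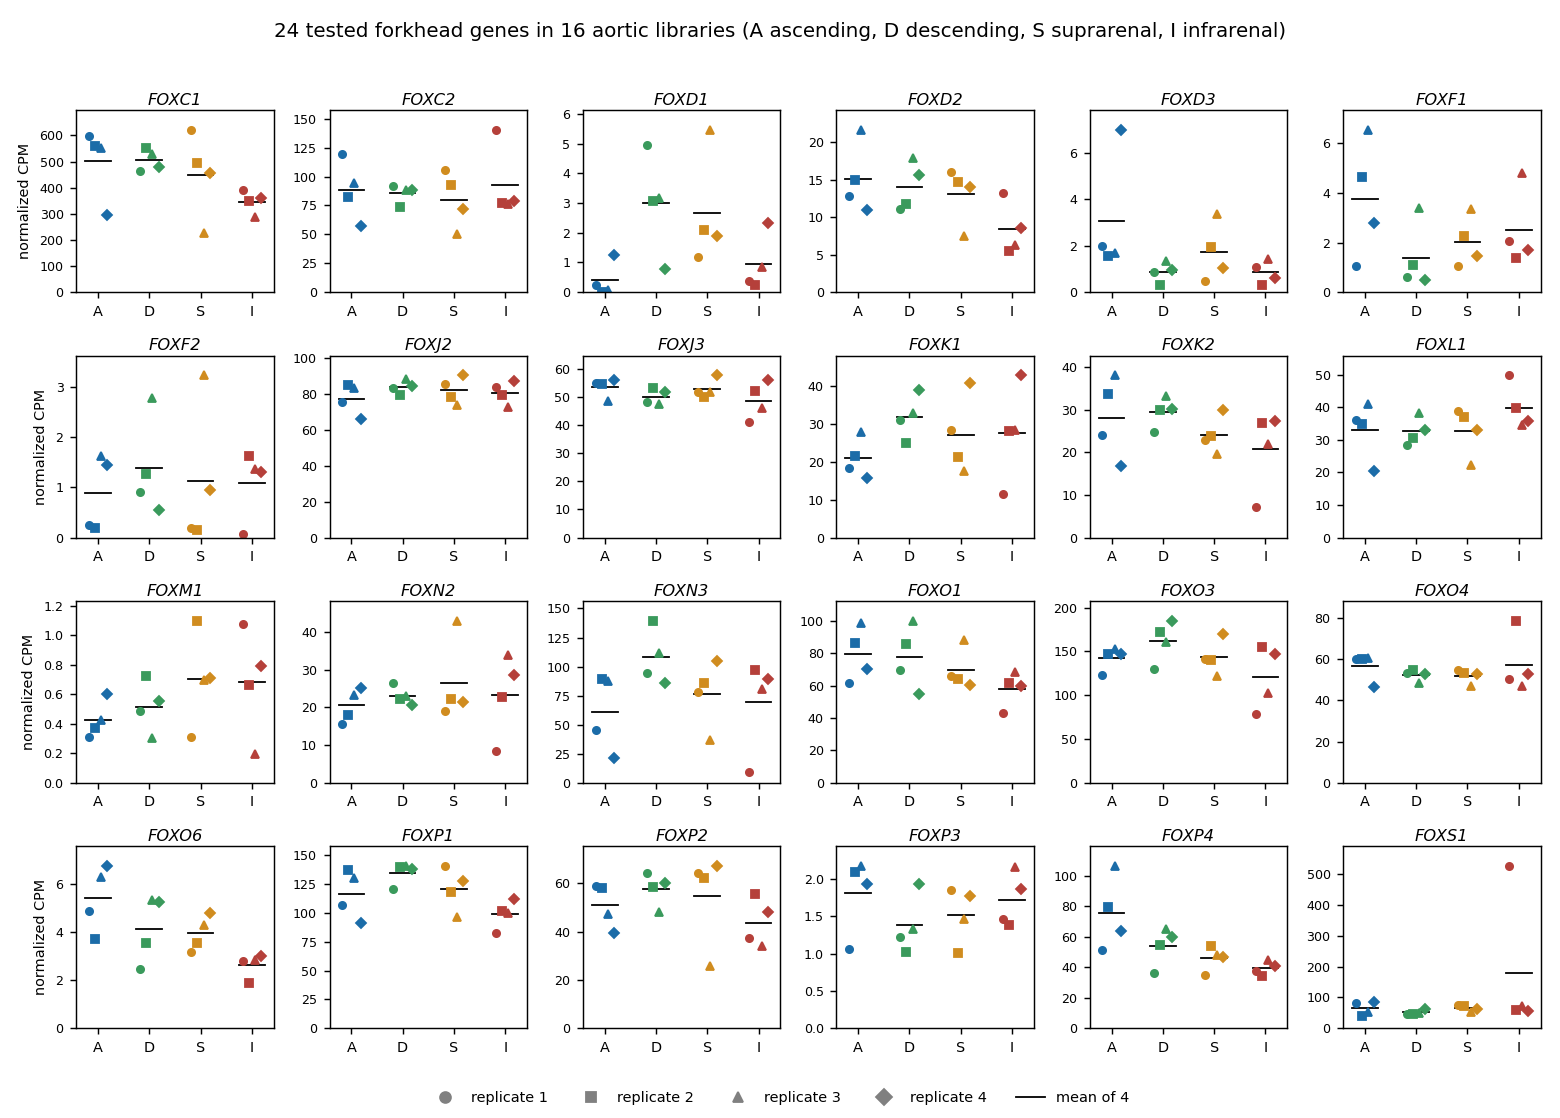
Normalized CPM of the 24 tested forkhead genes (vertical axes, linear from 0) in each library by region (A ascending, D descending, S suprarenal, I infrarenal); symbols give the replicate number and bars the mean of 4. FOXP4 descends from A to I, FOXJ2 and FOXJ3 stay within narrow ranges, and FOXS1 has a single library at 528 CPM.

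Comparisons of 1 region, or of the abdominal aorta, with the remainder gave no call either. Setting ascending tissue against the average of the other 3 regions, edgeR called 0 of 24 (4 at an unadjusted p under 0.05, DESeq2 1, limma voom 0), beside 1.39% of all tested genes. Setting infrarenal tissue against the remaining average, edgeR called 0, beside 2.98%, and 6 members passed unadjusted, beside 13.7%. DESeq2 and limma voom called 0 each, in fits that called 5.35% and 2.49%, though DESeq2 gave no adjusted p-value for FOXS1 in any test. For the 2 abdominal against the 2 thoracic regions edgeR called 0, beside 2.11%, and 4 members passed unadjusted, beside 10.2%. DESeq2 called 1 and limma voom 0, in fits that called 4.08% and 1.96%. The median log2 difference of the 24 members was -0.15 for the infrarenal region against the rest, with 15 members negative and 9 positive, and 0.03 over all tested genes. No member had all ascending, all infrarenal or all abdominal libraries beyond every other library in either direction. That pattern was seen in 0.446% (higher) and 0.421% (lower) of all tested genes for the ascending, 0.471% and 0.904% for the infrarenal and 0.0314% and 0.0691% for the abdominal libraries.

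Of the 6 pairs of regions, 1 member was called in at least 1 pair, 4.17% of members beside 3.79% of all tested genes. In the other 5 pairs edgeR called 0 members, as did DESeq2 and limma voom. Of all tested genes edgeR called 0.113% between descending and ascending aorta, 0.257% between suprarenal and ascending and 0% between suprarenal and descending. It called 1.65% between infrarenal and descending and 0.201% between infrarenal and suprarenal. In the same order, 4, 2, 0, 5 and 1 members had an unadjusted p under 0.05. Beside them, 6.74%, 5.50%, 1.66%, 13.8% and 5.76% of all tested genes had an unadjusted p under 0.05.

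**Figure D2:**
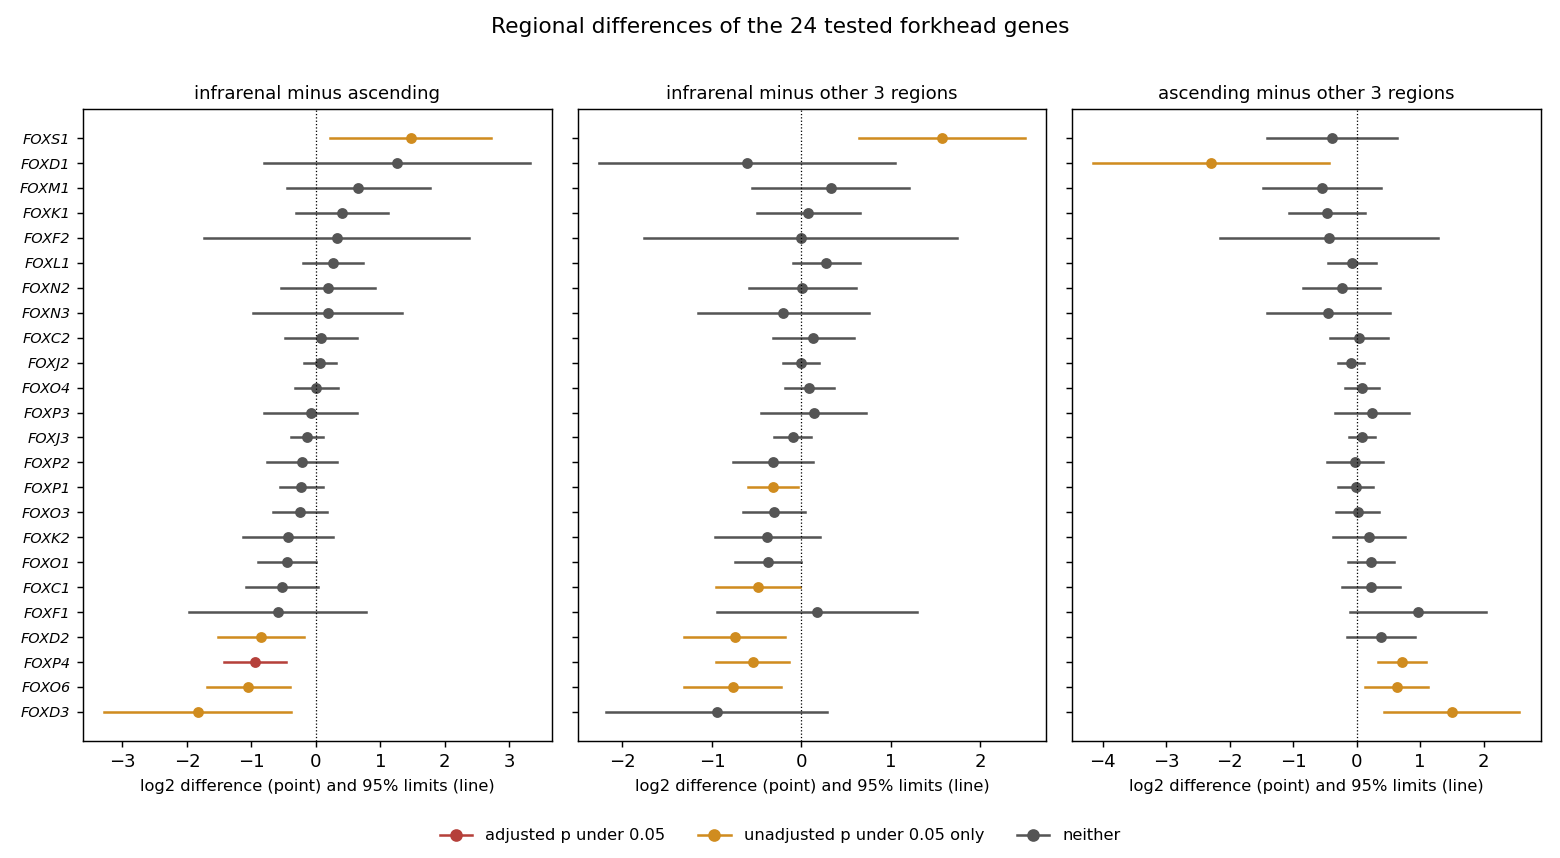
Log2 difference (points) with 95% limits (lines) of the 24 tested forkhead genes for 3 contrasts, ordered by the infrarenal minus ascending difference. FOXP4 in the left panel (-0.94) is the single value with an adjusted p under 0.05; the lines of FOXD1, FOXF2 and FOXF1 are several times longer than those of FOXJ2 and FOXJ3.

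FOXP4 (GeneID 102127752), a repressor of the P subfamily with roles in lung, gut and heart development, stood highest in the ascending aorta and lowest in the infrarenal aorta. In replicates 1 to 4 it measured 51.3, 79.6, 107 and 63.9 CPM in the ascending region and 36.0, 54.9, 65.4 and 59.8 in the descending region. It measured 35.1, 53.7, 48.4 and 46.8 CPM in the suprarenal and 37.3, 34.1, 44.7 and 40.6 in the infrarenal region. All 4 infrarenal libraries lay below all 4 ascending libraries, while each neighbouring pair of regions overlapped. The means were 75.3 ± 23.9, 54.0 ± 12.8, 46.0 ± 7.85 and 39.2 ± 4.55 CPM from ascending to infrarenal (SD, n = 4 each). FOXP4 fell by 0.94 on the log2 scale from ascending to infrarenal (SE 0.23, 95% limits -1.42 to -0.46, adjusted p = 0.0282), a 1.92-fold difference.

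The ascending region against the rest gave 0.71 for FOXP4 (SE 0.18, adjusted p = 0.0611), and abdominal against thoracic gave -0.59 (SE 0.16, adjusted p = 0.0764). Neither passed in the main edgeR fit, though DESeq2 called both (adjusted p = 0.0151 and 0.0232, in fits that called 3.43% and 4.08% of all tested genes). The edgeR fit with the replicate number as a block called both too (adjusted p = 0.0127 and 0.0175), beside 2.57% and 3.43% of all tested genes. No step between neighbours passed in edgeR: -0.48 from ascending to descending, -0.23 from descending to suprarenal and -0.23 from suprarenal to infrarenal. The infrarenal against ascending call was lost without ascending replicate 2 (adjusted p = 0.08), ascending replicate 3 (0.11), infrarenal replicate 2 (0.1) or infrarenal replicate 4 (0.0674), with log2 differences from -0.73 to -0.96, and with only the 8 libraries of the pair in the fit (-0.94, adjusted p = 0.101). With the 3 libraries that stand apart all removed it was kept (-0.99, adjusted p = 0.0286), in a fit that called 13.2% of all tested genes.

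The other P-subfamily genes had no called difference. FOXP1, which pairs with FOXP4 and acts in heart and endothelial development, averaged 116 ± 21.4, 135 ± 9.48, 121 ± 18.6 and 99.3 ± 12.5 CPM from ascending to infrarenal (SD, n = 4). Its 4 infrarenal libraries lay below the 4 descending ones, as did those of FOXC1, while 5.51% of all tested genes had this pattern (infrarenal minus descending -0.44, SE 0.16, adjusted p = 0.223). FOXP2, best known from speech and brain circuits, ranged from 25.8 CPM in suprarenal replicate 3 to 67.2 with a median of 56.7. FOXP3, the defining factor of regulatory T cells, stayed between 1.004 and 2.18 CPM in all libraries, with a mean of 1.38 to 1.82 in each region. The lymphocyte and regulatory T cell markers summed to 18.6 to 52.6 CPM over 13 genes, and their part in the FOXP3 values was not tested.

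FOXC1 (GeneID 102129077), a factor of outflow tract, arch artery and lymphatic development, had a lower mean in the infrarenal aorta, but the difference did not pass. It measured 597, 558, 552 and 295 CPM in ascending replicates 1 to 4 and 464, 551, 528 and 478 in the descending libraries. It measured 621, 494, 226 and 456 CPM in the suprarenal libraries and 392, 347, 287 and 362 in the infrarenal ones. Apart from ascending replicate 4 and suprarenal replicate 3, all 10 libraries of the upper 3 regions exceeded all 4 infrarenal libraries. The infrarenal difference from the rest was -0.48 (SE 0.22, 95% limits -0.95 to -0.01, adjusted p = 0.352).

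The 2 low libraries of FOXC1 outside the infrarenal region are the 2 with the lowest smooth muscle score. The 3 lowest FOXC1 values, 226, 287 and 295 CPM, were in suprarenal replicate 3, infrarenal replicate 3 and ascending replicate 4, whose endothelial scores (2.05, 1.46 and 1.24) were the 3 highest. Within the infrarenal region FOXC1 was highest, at 392 CPM, in replicate 1, which had the lowest endothelial score of all libraries, -1.28. The part of these cell types in the FOXC1 values was not tested. With infrarenal replicate 1, ascending replicate 4 and suprarenal replicate 3 left out, FOXC1 had an infrarenal difference of -0.68 (SE 0.11, adjusted p = 0.00266), in a fit that called 10.1% of all tested genes. These libraries were picked from these data. They hold the highest infrarenal and the lowest ascending and suprarenal values of FOXC1. Leaving them out therefore widens the difference, and its p-value is no independent test.

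**Figure D3:**
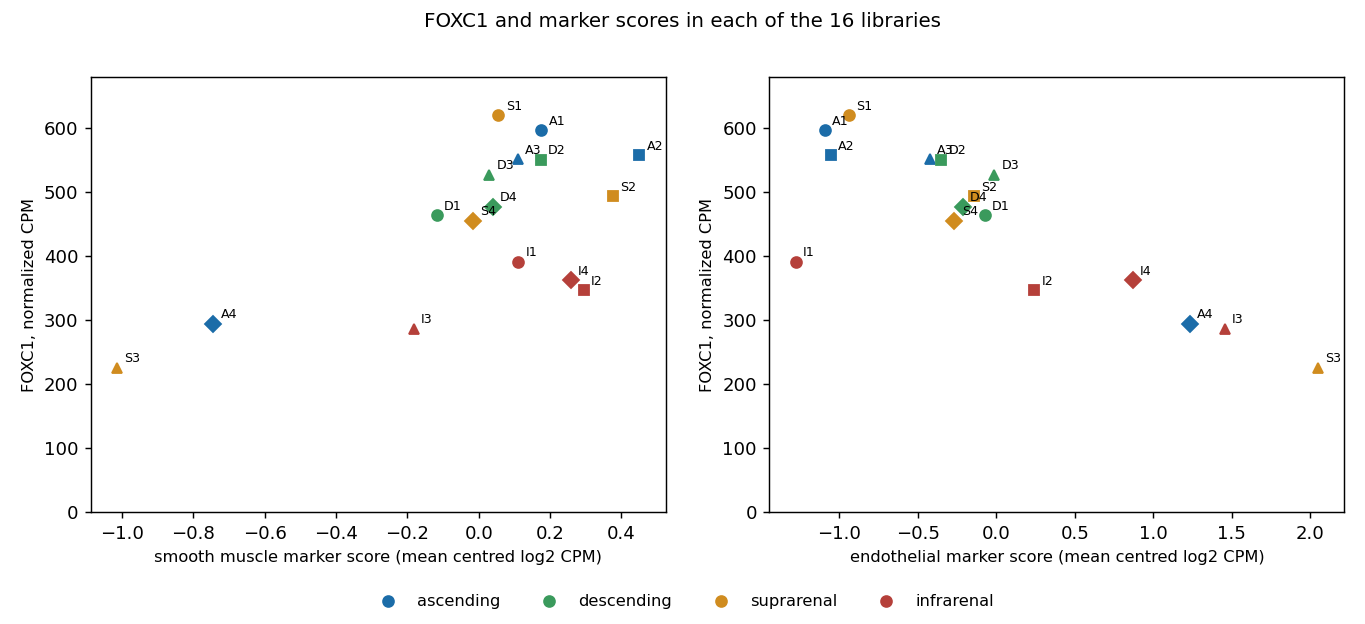
FOXC1 (vertical axes, normalized CPM) against the score of smooth muscle (left) and endothelial (right) markers, each point 1 library labelled by region letter and replicate number. S3 and A4, at 226 and 295 CPM, hold the lowest smooth muscle scores (-1.01 and -0.74), and the infrarenal libraries lie between 287 and 392 CPM.

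FOXC2 (GeneID 102118578), the close paralog of FOXC1 that is required for lymphatic valves and for arch development, lacked the lower infrarenal mean of FOXC1. This rested on 1 library. The infrarenal mean of FOXC2 was 92.9 CPM, and 77.1 over replicates 2 to 4, beside 80.1 to 88.3 in the other regions. Its CPM was 119, 82.3, 94.3 and 57.3 in the ascending, 92.3, 73.9, 87.9 and 88.1 in the descending, 106, 92.8, 50 and 71.9 in the suprarenal and 140.3, 76.8, 76.1 and 78.5 in the infrarenal libraries. All regions overlapped, and ascending replicate 4 and suprarenal replicate 3 were again the lowest. The infrarenal difference was 0.14 (SE 0.21, 95% limits -0.32 to 0.59, adjusted p = 0.855) and -0.13 without infrarenal replicate 1, its highest library. The difference between the changes of FOXC1 and FOXC2 was not tested. Lymphatic endothelial markers summed to 19.9 to 347 CPM over 8 genes, the highest in suprarenal replicate 3, where FOXC2 was lowest.

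FOXF1 (GeneID 102117241), a hedgehog target of lateral plate mesenchyme and lung vessels, was scarce. It measured 1.07, 4.63, 6.54 and 2.78 CPM in the ascending and 0.611, 1.08, 3.40 and 0.499 in the descending libraries, from 9 to 108 counts over all libraries. It measured 1.05, 2.25, 3.36 and 1.48 CPM in the suprarenal and 2.08, 1.38, 4.78 and 1.70 in the infrarenal libraries. Replicate 3 was the highest library in every region, and the regions overlapped widely. The mean was 3.75 ± 2.36 CPM in the ascending and 1.398 ± 1.36 in the descending region (SD, n = 4), a log2 difference of -1.42 (SE 0.66, 95% limits -2.83 to -0.01, adjusted p = 0.737), so a difference of this size was not resolved. FOXF2, its paralog, ranged from 0.0771 CPM, a single count in infrarenal replicate 1, to 3.24, with regional means of 0.88 to 1.38.

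Several forkhead genes lie close in gene order, and no gene of either cluster here had a called difference in the main fit. In the order of the T2T-MFA8v1.1 annotation, used for names only, FOXF1, MTHFSD, FOXC2 and FOXL1 follow each other with a pseudogene after FOXF1. GMDS, FOXC1, FOXF2 and FOXQ1 follow each other with other genes and a pseudogene between them. FOXL1, a mesenchymal factor of the gut wall, ranged from 20.6 to 49.9 CPM, the latter in infrarenal replicate 1. Its infrarenal difference was 0.28 (SE 0.17, adjusted p = 0.516). That value ran from 0.16 to 0.35 with 1 library left out and from 0.05 to 0.30 in the other alternative fits. In the same cluster FOXC2 had 0.14 and FOXF1 0.17, and in the other cluster FOXC1 had -0.48 and FOXF2 -0.01 (SE 0.82). No test compared these values with each other. FOXQ1 had 14 counts in all 16 libraries together. Of a list of 16 members and neighbours of both clusters, 11 matched a row, 10 were tested and 0 were called by edgeR in the test of any difference, nor at an unadjusted p under 0.05 (0), nor by DESeq2 (0) or limma voom (0).

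Hedgehog signalling, which drives FOXF1, FOXF2 and FOXL1 in embryonic mesenchyme, was read from a list of 18 genes, of which 17 were tested. Like every list here, it was chosen with earlier results of these data known. Its counts beside the shares of all tested genes describe it and do not test it. From ascending to infrarenal aorta 4 rose and 0 fell, where 1.43% of all tested genes rose and 2.06% fell, and the list's median was 0.11 against 0.05 over all tested genes. GLI3, the GLI transcription factor that acts mainly as a repressor, measured 6.78 ± 0.625 CPM in the ascending region and 14.97 ± 5.06, 14.8 ± 3.36 and 14.98 ± 1.61 in the descending, suprarenal and infrarenal regions (SD, n = 4). All 4 ascending libraries lay below the other 12, as they did for DISP1, which releases hedgehog ligand from cells, and 0.421% of all tested genes had this pattern.

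In ascending tissue against the remaining regions, 2 hedgehog genes were called, both lower, where 0.527% of all tested genes were lower. GLI3 fell by 1.13 (SE 0.2, adjusted p = 0.00876) and DISP1 fell by 1.13 (SE 0.21, adjusted p = 0.0109). These calls were lost without ascending replicate 2 for GLI3 (adjusted p = 0.0513) and without ascending replicate 3 for DISP1 (0.0545). From ascending to infrarenal, GLI3 rose by 1.14 (adjusted p = 0.0113) and DISP1 by 1.13 (0.0139), the latter a call lost without infrarenal replicate 2 (0.0557) or with only the 8 libraries of the pair (0.101). GLI2 (1.02, adjusted p = 0.0437) and SUFU, which holds GLI factors in the cytoplasm (0.80, adjusted p = 0.0227), rose too, calls that did not survive in 11 (GLI2) and 5 (SUFU) of the 16 fits with a library removed. GLI2 was also lost with limma voom, library totals or no filter, SUFU with library totals, and both with only the 8 libraries of the pair (adjusted p = 0.134 and 0.135). The target genes GLI1, at 7.96 to 10.7 CPM by region, and PTCH1, at 27.6 to 33.0, had no called difference among the regions (adjusted p = 0.949 and 0.978). SHH, a ligand, had 0 counts in all libraries, which allows up to 3 counts over the series.

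**Figure D4:**
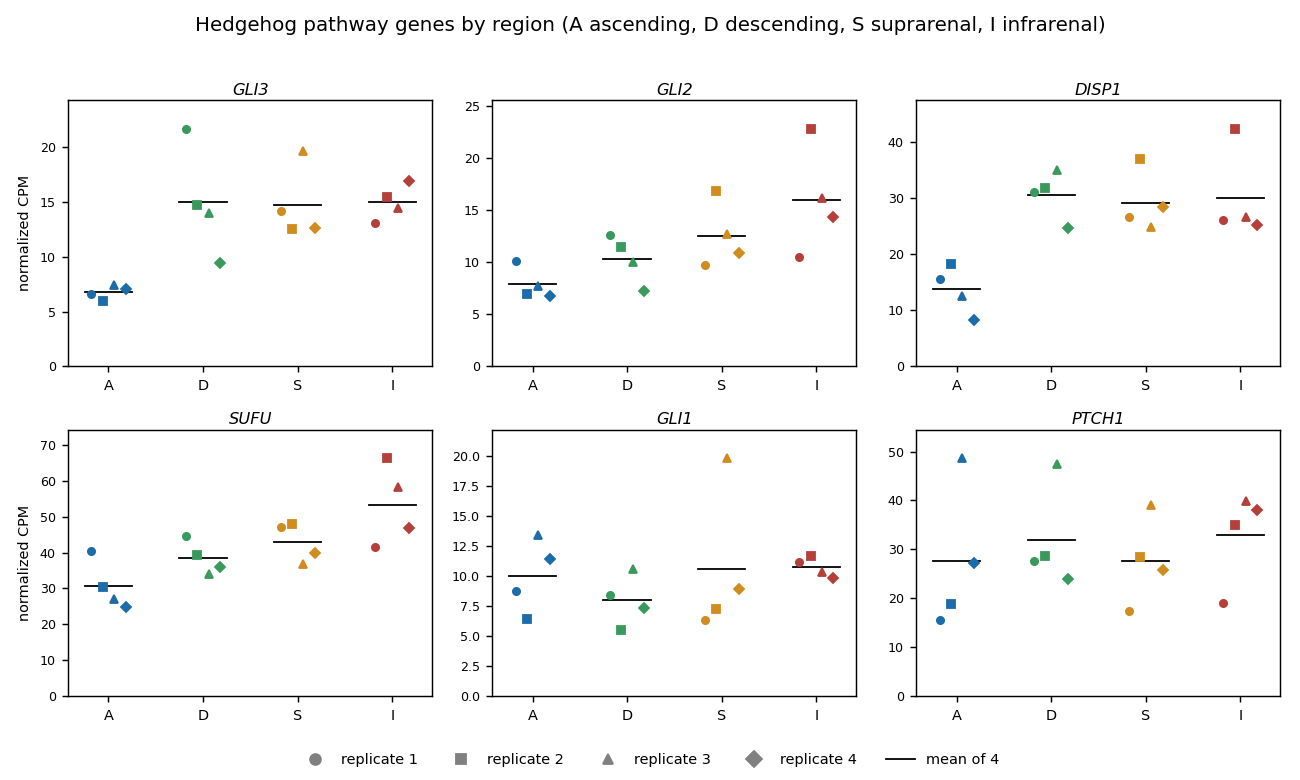
Normalized CPM (vertical axes, from 0) of 6 hedgehog pathway genes in each library by region (A ascending, D descending, S suprarenal, I infrarenal); symbols give the replicate number and bars the mean of 4. GLI3 and DISP1 have 4 ascending libraries below the other 12, while GLI1 and PTCH1 overlap in all regions.

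The O subfamily had no called member in the main fit. Its members activate genes of cell cycle arrest, antioxidant defence and protein breakdown when PI3K-AKT signalling is low. FOXO1 (GeneID 102116712) measured 61.4, 86.5, 99.0 and 70.6 CPM in the ascending and 69.7, 85.8, 100.3 and 54.8 in the descending libraries. It measured 65.9, 64.0, 88.1 and 60.4 CPM in the suprarenal and 43.2, 61.8, 68.3 and 59.7 in the infrarenal libraries. Replicate 3 was the highest of each region, and all regions overlapped. The infrarenal difference was -0.37 (SE 0.18, 95% limits -0.74 to 0, adjusted p = 0.364). That value ran from -0.45 to -0.25 with 1 library left out and from -0.43 to -0.23 in the other alternative fits.

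FOXO6, a brain-enriched member, came closest to a call in the O subfamily. Its means were 5.41 ± 1.39, 4.15 ± 1.405, 3.95 ± 0.737 and 2.61 ± 0.508 CPM from ascending to infrarenal (SD, n = 4), and the 4 infrarenal libraries lay below the 4 ascending ones, and also below the 4 suprarenal ones, a pattern of 1.56% of all tested genes. Infrarenal minus ascending was -1.05 (SE 0.3, adjusted p = 0.0779), and 3 of 24 members (FOXD3, FOXO6 and FOXP4) had infrarenal libraries all below the ascending ones, beside 4.22% of all tested genes. DESeq2 called FOXO6 in that pair (adjusted p = 0.0171), in a fit that called 6.3% of all tested genes. FOXO3 ranged from 78.3 CPM in infrarenal replicate 1 to 185, and FOXO4 from 46.4 to 78.7.

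Of 22 genes of the PI3K-AKT control of FOXO, all tested, edgeR called 0 in the test of any difference, beside 2.02% of all tested genes. An unadjusted p under 0.05 was found for 1, beside 9.61% of all tested genes, and DESeq2 and limma voom called 0 each. From ascending to infrarenal PIK3R1, a regulatory subunit of PI3K, rose (1.07, adjusted p = 0.0462) with 0 falling, and the list's median was 0.03 against 0.05 over all tested genes. PIK3R1 no longer passed in 13 of the 16 fits with a library removed, nor with limma voom, library totals or only the 8 libraries of the pair (0.156). Of 26 known FOXO target genes, also chosen with earlier results known, 2 rose and 1 fell in that pair. Of all tested genes 1.43% rose and 2.06% fell. The list had 20 positive and 6 negative values and a median of 0.25, against 0.05 over all tested genes. ANGPT2, an angiopoietin that loosens endothelial contacts, rose by 3.94 (SE 0.63, adjusted p = 0.00228). SESN3, a stress-induced sestrin, rose by 1.08 (adjusted p = 0.0426), which 11 of those fits, limma voom, library totals and the fit of the pair alone (0.167) did not keep. TRIM63, a muscle ubiquitin ligase, fell by 2.004 (SE 0.37, adjusted p = 0.00605), from 18.6 ± 5.99 CPM in the ascending to 4.63 ± 1.61 in the infrarenal region (SD, n = 4). In the same pair 3 of 4 tested cardiac muscle markers of 10 listed were negative, with a median of -2.10 and 1 called lower (MYH6). The 9 matched markers, none at 0 in all libraries, summed to 89.9 to 261 CPM in the ascending and 55.3 to 167 in the infrarenal region. Outside replicate 1 the ascending sums were 110 CPM or less. The part of these markers in the TRIM63 value was not tested. Endothelial markers had a median of 0.73 in the same pair, with 12 of 14 positive and 0 called, and their part in the values of the target list was not tested.

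The D subfamily had no called member in the main fit and its estimates were wide. FOXD1 (GeneID 102123823), known from the stroma and pericyte precursors of the kidney, measured 0.251, 0, 0.0605 and 1.27 CPM in the ascending libraries and 4.95, 3.07, 3.15 and 0.776 in the descending ones. It measured 1.18, 2.10, 5.46 and 1.89 CPM in the suprarenal and 0.386, 0.241, 0.852 and 2.32 in the infrarenal libraries. The ascending and infrarenal libraries were mostly low and the middle of the aorta mostly high, but ascending replicate 4, with 21 of the region's 26 counts, overlapped the rest. Descending minus ascending was 2.89 (SE 0.98, 95% limits 0.81 to 4.97, adjusted p = 0.498).

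Leaving out ascending replicate 4 alone moved the FOXD1 difference to 4.76 (adjusted p = 0.125), with 5 counts remaining in the ascending region. With all 3 libraries that stand apart left out it was 4.76 (adjusted p = 0.0484), where 0.885% of all tested genes were called. FOXD2 measured 15.1 ± 4.66, 14.1 ± 3.27, 13.1 ± 3.83 and 8.42 ± 3.43 CPM from ascending to infrarenal (SD, n = 4), an infrarenal difference of -0.74 (SE 0.27, adjusted p = 0.195). Without those 3 libraries FOXD2 had -1.15 (adjusted p = 0.00517), where 10.1% of all tested genes were called. FOXD3, a factor of neural crest and its Schwann cell precursors, stood at 1.54 to 2.005 CPM in 3 ascending libraries and at 7.001 in ascending replicate 4. Its 4 ascending libraries lay above the 4 descending ones, as for 6.37% of all tested genes, and above the 4 infrarenal ones. The ascending difference from the rest was 1.495 (SE 0.5, adjusted p = 0.221), and 0.69 without ascending replicate 4 (adjusted p = 0.784). Schwann cell marker scores were 1.51 in ascending replicate 4 and 1.55 in suprarenal replicate 3, the 2 libraries with the most FOXD3, and from -1.11 to 0.79 in the rest; their part in the FOXD3 values was not tested.

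FOXS1 (GeneID 102144015), which is expressed in mural cells around vessels, differed in 1 library. It measured 528 CPM in infrarenal replicate 1 and 58.0, 70.6 and 56.9 in the other infrarenal libraries. It measured 81.1, 38.6, 52.6 and 85.2 CPM in the ascending, 47.6, 45.5, 48.8 and 62.4 in the descending and 75.4, 72.0, 52.6 and 61.5 in the suprarenal libraries. The infrarenal difference was 1.57 with that library (SE 0.44, adjusted p = 0.0709) and 0.05 without it (adjusted p = 0.962). FOXS1 thus had a level between 38.6 and 85.2 CPM in the 15 other libraries.

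The tested K, N and J genes (FOXK1, FOXK2, FOXN2, FOXN3, FOXJ2 and FOXJ3), which are expressed in many tissues, overlapped between all regions. Several were lowest in infrarenal replicate 1. FOXN3, a repressor of cell cycle genes, measured 9.64 CPM in infrarenal replicate 1 and 81.1 to 97.03 in the other infrarenal libraries, and 21.2 in ascending replicate 4. FOXK2 measured 7.25 CPM in infrarenal replicate 1 against 22.1 to 27.3 in the others of its region, FOXK1 11.3 against 28.0 to 42.7 and FOXN2 8.33 against 22.7 to 33.8. In contrast, FOXJ2 stayed between 66.1 and 90.4 CPM and FOXJ3 between 41.0 and 57.7 in all 16 libraries. For FOXJ2 the infrarenal minus ascending difference was 0.06 (95% limits -0.19 to 0.31) and for FOXJ3 -0.13 (-0.39 to 0.12).

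**Figure D5:**
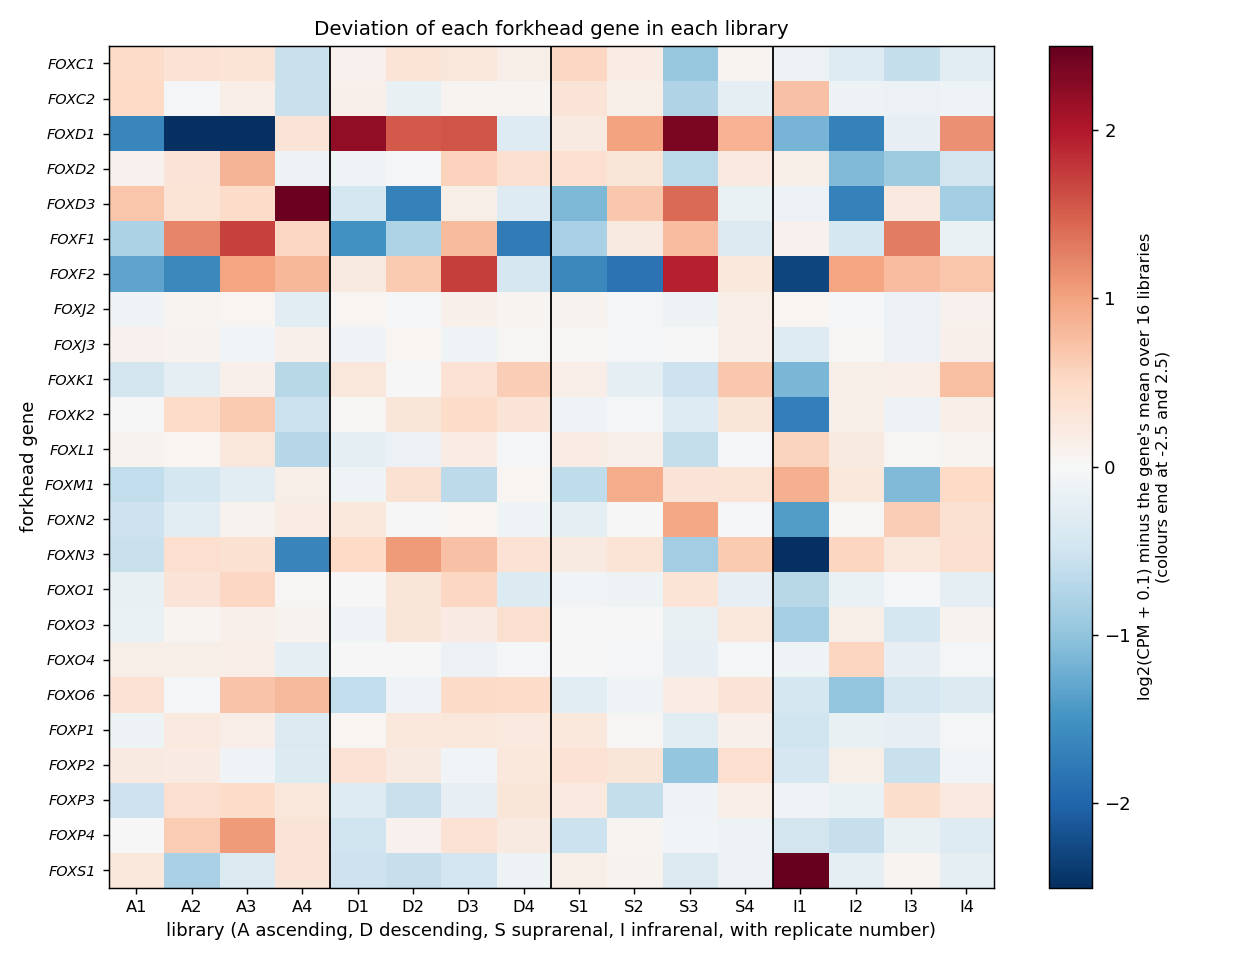
Deviation of each tested forkhead gene (rows) from its mean over 16 libraries, as log2(CPM + 0.1), in each library (columns, by region letter and replicate number). I1 shows FOXS1 far above and FOXN3, FOXF2, FOXK2 and FOXN2 far below their means, and A1 to A3 show low FOXD1.

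Infrarenal replicate 1 was also read by annotated gene span, over genes with a mean of at least 1 CPM in the region. Of 8 such members with a span under 10 kb, 5 were higher and 3 lower in that library than the mean of the other 3 infrarenal libraries, beside 74.3% higher of 3111 genes. Of 13 such members with a longer span, 11 were lower, beside 62.1% of 10311 genes. The cut of 10 kb was chosen after the values were seen, and spans come from T2T-MFA8v1.1, which may differ from the annotation used for counting.

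FOXM1, which drives genes of mitosis, averaged 0.428 to 0.704 CPM by region, with 3 to 23 counts in a library. Of 20 genes of the mitotic programme 14 were tested and 0 were called by edgeR in the test of any difference (0 at an unadjusted p under 0.05, DESeq2 0, limma voom 0), with MKI67 at 0.844 to 1.31 CPM by region. The list's median from ascending to infrarenal was -0.20, with 9 negative and 5 positive values.

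The 18 untested genes had few or no counts. FOXB1, FOXI2, FOXI3 and FOXN1 had 0 counts in all 16 libraries, which allows up to 3 counts each over the series. A further 8 had 10 or fewer in all, namely FOXA3, FOXE1, FOXI1, FOXJ1, FOXL3, FOXN4, FOXR1 and FOXR2. FOXA1 and FOXA2, pioneer factors of endoderm, had 51 and 15 counts, and FOXJ1, the master factor of motile cilia, had 7. FOXH1, an effector of Nodal signalling, had 105 counts, spread as 27, 22, 29 and 27 from ascending to infrarenal. FOXD4, with 42 counts, has near-identical copies in primates, so its reads may be split.

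FOXB2, singled out after its values were seen, had 43 of its 64 counts in the ascending libraries. Its counts were 7, 6, 13 and 17 there, 2, 0, 4 and 0 in the descending, 1, 0, 0 and 3 in the suprarenal and 0, 2, 8 and 1 in the infrarenal libraries. The infrarenal library with 8 overlapped the ascending ones. In the fit without the filter on low counts ascending minus rest was 2.65 (SE 0.8) and missed the threshold (adjusted p = 0.178).

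Regional differences were called among other transcription factors that pattern the heart outflow tract and the vessel wall. Of 17 tested positional and smooth muscle factors, 5 were higher and 1 lower in the ascending aorta against the rest, beside 0.86% and 0.527% of all tested genes. The list was chosen with earlier results of these data known, so these shares describe it and do not test it. HAND1, a factor of outflow tract and lateral mesoderm, rose by 5.50 (SE 0.58, adjusted p = 0.000165), from at most 0.379 CPM by region elsewhere to 11.8 ± 6.48 (SD, n = 4). GATA4, GATA5 and HAND2 rose by 5.75, 2.37 and 1.52 and TBX20 by 2.22, while TBX18 fell by 1.00. TBX18 dropped out in 12 of the 16 fits with a library removed (adjusted p up to 0.165), and TBX20 without ascending replicate 3 (0.0516). HAND1, GATA4, GATA5 and HAND2 were called in all 16 of these fits, and without ascending replicate 4 the GATA4 difference was 4.07.

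Lists of mesothelial and cardiac muscle markers also had higher medians in ascending tissue, each with 1 ascending library that scored far above the others. Of 8 mesothelial markers 7 matched a row and 5 were tested, all with positive values in ascending tissue against the rest (median 2.51), and 1 was called higher (KRT8). The 7 summed to 78.9 to 212 CPM in the ascending libraries, 18.8 to 68.4 in the descending, 16.2 to 27.6 in the suprarenal and 8.31 to 17.6 in the infrarenal ones, with none at 0 in all libraries. Ascending replicate 4 had the highest score of both the mesothelial list (3.61) and the factor list (1.43), and WT1 is on both lists. The other ascending libraries had mesothelial scores of -0.50 to 0.13, below descending replicate 3 (1.175). Of the 4 tested cardiac muscle markers, 3 were positive and 1, MYH6, was called higher (median 1.81). The cardiac markers summed to 89.9 to 261 CPM in the ascending, 87.7 to 117 in the descending, 46.1 to 133 in the suprarenal and 55.3 to 167 in the infrarenal libraries, and NPPA was at 0 in all 4 ascending libraries. The 261 CPM was in ascending replicate 1, which had a cardiac score of 2.51. The other ascending libraries had 89.9 to 110 CPM and scores of 0.10 to 0.48. NKX2-5 is on both the cardiac and the factor list. The part of the mesothelial and cardiac markers in the values of these factors was not tested.

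Of 21 tested partners and targets of FOXC1 and FOXC2, 2 were called in infrarenal tissue against the other regions, both higher, where 1.37% of all tested genes were higher. This list too was chosen with earlier results of these data known. PDGFRB, a growth factor receptor of mural cells, was higher by 0.69 (SE 0.1, adjusted p = 0.00111). Its infrarenal mean was 352 ± 23.8 CPM (SD, n = 4), and the other regional means ran from 179 to 255. Of 7 tested pericyte markers of 8 listed, PDGFRB among them, 6 were positive in the same comparison and 4 were called higher (NOTCH3, PDGFRB, MCAM and KCNJ8), with a median of 0.69. The 8 markers summed to 2020 to 3496 CPM in the ascending, 5617 to 6841 in the descending, 1981 to 8432 in the suprarenal and 5251 to 7119 in the infrarenal libraries, and HIGD1B lay at 0.18 CPM or less in all. Their part in the PDGFRB value was not tested. TBX2, a transcriptional repressor that acts in outflow tract patterning, rose by 1.57 (SE 0.31, adjusted p = 0.00947). PROX1 and FLT4, which mark lymphatic endothelium, had no called difference among the regions. Of 7 tested lymphatic endothelial markers of 8 listed, 1 was called in that test, beside 2.02% of all tested genes. In ascending tissue against the rest 1 was higher, beside 0.86%, and in infrarenal tissue against the rest 1 was lower, beside 1.61%.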

How the data were processed

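Per the labels' protocols, sequencing libraries came from a NEBNext Ultra RNA kit. The authors deposited raw read counts per NCBI GeneID. The submitters' processing notes name fastp, HISAT2 2.0.5 and featureCounts 1.5.0-p3. Genome build, annotation and strand setting are not stated in the labels or notes used here, so reads of a gene and of an overlapping antisense gene cannot be told apart. The series table and the 16 library files held the same values. Symbols came from RefSeq for T2T-MFA8v1.1, by GeneID, and matched 24609 of 32846 rows. No sequence of these genes was used here.

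All 16 libraries were fitted together in edgeR 4.0.16 (R 4.3.3): filterByExpr (minimum count 10, minimum total 15), TMM factors, 1 mean per region, and quasi-likelihood F tests of any difference, of a region against the mean of the rest, of abdominal against thoracic and of 6 pairs. Benjamini-Hochberg adjusted p-values over all 15926 tested genes were called under 0.05. SE is the log2 difference divided by the root of F, and 95% limits use 15.5 degrees of freedom. CPM uses TMM-scaled totals. Totals of this size leave few counts behind a gene near 1 CPM, so counting error is large there. No library repeated another (lowest chi-square per degree of freedom within a region 29.5). The pipeline was tested on simulated counts.

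Named by rule were FOXC1, FOXC2, FOXF1, FOXO1 and every called member, with all their values. Other members have ranges, and lists have counts with at most 4 members of smallest p. In the list of positional and smooth muscle factors, all members called in the ascending comparison are named instead. FOXB2, FOXD1 to FOXD3, FOXK1, FOXK2, FOXN2, FOXN3, FOXO6 and FOXS1, and GLI1, PTCH1, MKI67, PROX1 and FLT4, were singled out after values were seen. Members and lists were chosen with earlier results of these data known. A list's counts beside the share of all tested genes therefore describe the list and do not test it. The alternatives tried were DESeq2 1.42.0, voom from limma 3.58.1, the replicate number as a block, RLE factors, library totals, no filter but 1 count, a filter of 1 CPM in 4 or more libraries, only the libraries compared, each library left out, and 3 libraries left out together.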

Additional observations from a re-analysis of the deposited data

Results flagged for a closer look

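In 8 of 96 groups of 4 libraries (24 genes in 4 regions), the highest or lowest library lay far from the other 3 by Dixon's gap test, where chance marks about 1 in 20 groups. Of these, 3 were in ascending replicate 4, 2 in suprarenal replicate 3, 2 in infrarenal replicate 1 and 1 in descending replicate 1. FOXC1 measured 295 CPM in ascending replicate 4 against 552 to 597 in the other ascending libraries. FOXO4 measured 46.4 CPM there against 60.2 to 60.7, and FOXD3 7.001 against 1.54 to 2.005. In suprarenal replicate 3, FOXN2 measured 43.0 CPM against 19.0 to 22.1 in the others of its region and FOXP2 25.8 against 62.2 to 67.2. In infrarenal replicate 1, FOXS1 measured 528 CPM against 56.9 to 70.6 and FOXC2 140.3 against 76.1 to 78.5. FOXP1 measured 121 CPM in descending replicate 1 against 139 to 141.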

How the results depend on the processing

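With the replicate number as a block, 1 forkhead gene (FOXP4) passed the test of any difference, 1 the ascending, 0 the infrarenal and 1 the abdominal comparison, and 2 passed at least 1 pair (FOXO6 and FOXP4). That fit called 3.34%, 2.57%, 4.27% and 3.43% of all genes in the first 4. It called 5.29% in the infrarenal against ascending pair, where both passed. FOXP4 had adjusted p = 0.0127 (ascending) and 0.0175 (abdominal) in it. DESeq2 gave the same 5 numbers and no p-value for FOXS1, with 5.18%, 3.43%, 5.35% and 4.08% of all genes called. In the infrarenal against ascending pair it called 6.3%. The main fit did not take the numbers to pair the libraries, since the labels give no animal identity. Correlations of same-numbered libraries' deviations ran from -0.17 to 0.58, with a median of 0.34. Those of differently numbered libraries of 2 regions ran from -0.50 to 0.61, with a median of -0.095. Of 16 libraries, 15 lay closest on average to their own number, a hint from the data and not the design. If the numbers do mark animals, the main fit leaves out that pairing. With infrarenal replicate 1, ascending replicate 4 and suprarenal replicate 3 all left out the counts were 3 (FOXC1, FOXD1 and FOXD2), 2 (FOXD1 and FOXP4), 2 (FOXC1 and FOXD2), 1 (FOXC1) and 5 (FOXC1, FOXD1, FOXD2, FOXN2 and FOXP4) in the same order, beside 7.08%, 6.58%, 10.1% and 5.77% of all genes in the first 4 and 13.2% in the infrarenal against ascending pair. Those 3 libraries were picked from these data, so the counts without them are no independent test. With only the 8 libraries compared, 0 passed a pair. With 1 library left out the counts ran from 0 to 0, 0 to 1, 0 to 1, 0 to 1 and 0 to 2. Those fits called 1.31% to 2.94%, 0.672% to 3.95%, 1.65% to 3.53% and 1.32% to 3.07% of all genes in the first 4. They called 2.13% to 6.18% in the infrarenal against ascending pair. FOXS1 passed the infrarenal comparison when infrarenal replicate 2, 3 or 4 was removed (adjusted p at most 0.0436), and FOXD2 passed infrarenal against ascending without infrarenal replicate 1 (0.0403). FOXP4 passed the ascending comparison without ascending replicate 1 (0.039) or infrarenal replicate 1 (0.0406). It passed the abdominal comparison without ascending replicate 1 (0.0433) or descending replicate 1 (0.034). The infrarenal minus suprarenal value of FOXC2, 0.21, ran from -0.058 (without infrarenal replicate 1) to 0.39 with 1 library left out and was -0.23 with 3 out, and that of FOXO4, 0.14, ran from -0.054 (without infrarenal replicate 2) to 0.23. The cause was not tested. RLE factors, library totals, both filters and limma voom left all 5 counts as they were. Genes near 1 CPM, such as FOXF1, FOXF2 and FOXD1, have limits too wide to show a 2-fold difference.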
